A study of Drosophila melanogaster with 12 samples.

Results

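The vacuolar proton pump, or V-ATPase, was followed through its subunit genes in Drosophila S2R+ cells. Genes were taken by FlyBase symbol: Vha followed by a digit, together with VhaAC39-1, VhaAC39-2, VhaAC45, VhaM8.9, VhaPPA1-1, VhaPPA1-2 and VhaSFD. This gave 29 names, of which 28 were matched to a row of the 13777 genes in the table. Vha44, the gene of the C subunit, was not matched and is not analysed here. VhaM8.9 was matched through a RefSeq synonym to the row annotated ATP6AP2. Of the 28 genes, 13 form a general set with 1 gene for each matched subunit or accessory protein. The other 15 are further paralogs of subunits A, D, F, a, c, c'' and d.

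The libraries measured RNA 3' ends in total RNA of S2R+ cells, an embryonic line of hemocyte-like character. Cells were transfected with the wild-type form of Elav (the ElavWT group), of Fne (FneWT) or of Rbp9 (Rbp9WT), the 3 members of the fly ELAV/Hu family of RNA-binding proteins, or were left untreated, with 2 libraries per group numbered as replicates 1 and 2. The labels do not say whether the untreated cells were mock transfected, so transfection and the protein it delivers cannot be told apart in any comparison with them. Nothing states that replicates came from separate cultures, so p-values measure the spread between these libraries, which may be technical. A further 4 libraries of RNA-binding-domain mutants belong to the series and are not analysed here.

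The V-ATPase is a rotary machine that uses ATP to pump protons into lysosomes, endosomes, secretory vesicles and synaptic vesicles. Its peripheral V1 sector, subunits A to H, binds and splits ATP. Its membrane Vo sector, subunits a, c, c'' and d, carries the protons, and accessory proteins help assemble it. In flies most subunits are encoded by more than 1 gene. Usually 1 paralog is broadly expressed, and several of the others are known from single tissues, such as the testis, the gut or, for Vha100-1, neurons.

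Values are CPM, the reads of a gene scaled to the total of its library. A transcript gives reads at its end only, so CPM was compared between genes without a length term. Depth ran from 4694825 to 8761568 reads in transfected libraries, with 14391952 and 6808926 in untreated replicates 1 and 2. One read was thus worth 0.0695 to 0.213 CPM, and 3 reads, taken as the limit of detection, 0.208 to 0.639 CPM. The replicate numbers differed in RNA composition. The 11 rRNA-named genes took 15.4 to 24.8% of reads in the replicate 2 libraries, against 2.91 to 5.91% in the replicate 1 libraries. The row of elav had 29.2 and 26.6 CPM in ElavWT libraries and 24.9 and 37.3 CPM in untreated libraries. The row of fne had 49.8 and 4.47 CPM in ElavWT, 97.4 and 48.0 CPM in FneWT and 114.8 and 2.79 CPM in Rbp9WT libraries, against 6.67 and 1.91 CPM in untreated libraries. The row of Rbp9 had 6.20 and 2.34 CPM in ElavWT, 7.46 and 2.55 CPM in FneWT and 713 and 58.8 CPM in Rbp9WT libraries, against 3.34 and 2.35 CPM in untreated libraries. Rbp9 thus stood highest in its own group, while elav did not stand apart in ElavWT, and the highest fne value was in Rbp9WT replicate 1. Whether reads of the transfected constructs are counted in these rows is not stated in the sources. Of the hemocyte markers, srp was at 27.1 to 88.0 CPM, Pxn at 44.4 to 199 CPM and Col4a1 at 9.45 to 42.7 CPM over the 8 libraries. Hml reached 5.25 CPM, He 2.97 CPM, and NimC1 was at 0 in 7 libraries, so these defining markers were low or absent. RNA per cell and number of cells cannot be told apart in such bulk samples.

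All 13 general genes passed the filter for testing, which asked for a mean of 1 CPM or more across the 8 libraries. Of the 15 further paralogs, 6 passed, namely Vha68-1, Vha68-3, Vha36-3, Vha14-2, Vha100-1 and VhaAC39-2. Vha16-1, which encodes the proton-carrying c ring subunit, was the most abundant member. It had 3088 and 2487 CPM in ElavWT, 3651 and 1718 CPM in FneWT and 4233 and 3258 CPM in Rbp9WT libraries, against 3685 and 2451 CPM in untreated libraries. Its mean lay above that of more than 99.4% of the 9114 tested genes in every group. The other 12 general genes spanned 8.19 to 810.2 CPM, with Vha100-2 the lowest of them in all 8 libraries.

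**Figure D1:**
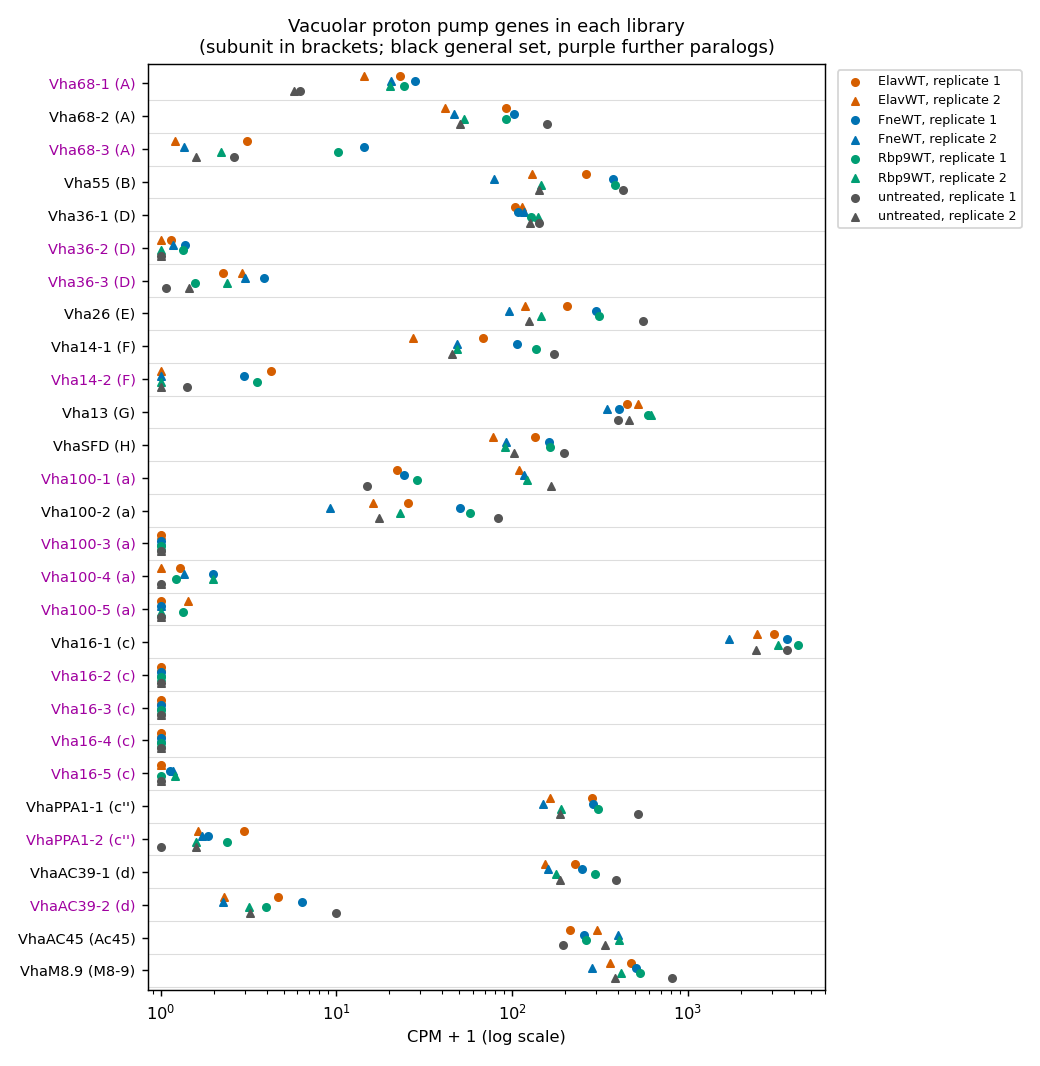
CPM + 1 on a log axis for each of the 28 genes in each library, circles for replicate 1 and triangles for replicate 2, with the subunit in brackets. Vha16-1 sits alone at the right between 1718 and 4233 CPM, the other 12 general genes lie between 8.19 and 810.2 CPM, and Vha16-2, Vha16-3, Vha16-4 and Vha100-3 stay at 0 CPM throughout.

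In the V1 sector the catalytic A subunit has 3 genes. Vha68-2, its general gene, had 90.8 and 40.5 CPM in ElavWT, 101 and 45.7 CPM in FneWT and 91.2 and 52.0 CPM in Rbp9WT libraries, against 158 and 49.6 CPM in untreated libraries. Vha68-1 (chromosome 2L, 13000770 to 13004107, minus strand, in the Ensembl annotation of BDGP6) had 21.9 and 13.4 CPM in ElavWT, 27.0 and 19.5 CPM in FneWT and 23.2 and 19.1 CPM in Rbp9WT libraries, against 5.21 and 4.70 CPM in untreated libraries. All 6 transfected libraries were above both untreated ones for Vha68-1, while the groups overlapped for Vha68-2. Vha68-3 had 2.11 and 0.213 CPM in ElavWT, 13.3 and 0.364 CPM in FneWT and 9.24 and 1.20 CPM in Rbp9WT libraries, against 1.60 and 0.587 CPM in untreated libraries. Its replicate 1 values stood above the replicate 2 value of the same group, and the groups overlapped. Vha68-3 starts 178 bases after the end of Vha68-2 on the same strand, so the counting could have split reads between them, and Vha68-1 lies 22162 bases away on the opposite strand.

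The B subunit, encoded by Vha55, shares the ATP sites with A. It ran from 77.9 to 386 CPM in transfected libraries, with 426 and 140.4 CPM in untreated libraries. Vha26, the E subunit of the outer stalk, ran from 95.1 to 309 CPM in transfected libraries, with 556 and 123 CPM in untreated libraries. The groups overlapped for both genes. Vha36-1, the D subunit of the central shaft, varied little. It had 103 and 113 CPM in ElavWT, 107 and 116 CPM in FneWT and 126 and 138 CPM in Rbp9WT libraries, against 142 and 126 CPM in untreated libraries. ElavWT and FneWT libraries lay below both untreated ones for Vha36-1, and Rbp9WT libraries overlapped with them.

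Vha36-3, a second D gene, had 1.27 and 1.92 CPM in ElavWT, 2.86 and 2.00 CPM in FneWT and 0.571 and 1.39 CPM in Rbp9WT libraries, against 0.0695 and 0.441 CPM in untreated libraries. The groups did not overlap, but the untreated values rest on 1 and 3 reads. Vha14-1, the F subunit of the shaft, had 67.0 and 26.4 CPM in ElavWT, 106 and 47.7 CPM in FneWT and 135 and 47.8 CPM in Rbp9WT libraries, against 172 and 44.5 CPM in untreated libraries. Each replicate 2 library was under each replicate 1 library for it, and the groups overlapped. Its paralog Vha14-2 had 3.24 CPM in ElavWT, 1.99 in FneWT and 2.51 in Rbp9WT replicate 1, against 0.417 in untreated replicate 1, and no read in any replicate 2 library. Vha13, the stalk subunit G, had 448 and 522 CPM in ElavWT, 407 and 347 CPM in FneWT and 593 and 615 CPM in Rbp9WT libraries, against 400.1 and 461 CPM in untreated libraries. Only the Rbp9WT libraries were both above the untreated ones. VhaSFD, the regulatory H subunit, ran from 76.9 to 164 CPM in transfected libraries, with 195 and 101 CPM in untreated libraries. In the annotation 3 other genes on its strand overlap it, among them mir-1006.

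In the Vo sector the a subunit has 5 genes. Vha100-2, the general one, had 24.4 and 15.1 CPM in ElavWT, 49.7 and 8.19 CPM in FneWT and 56.3 and 21.9 CPM in Rbp9WT libraries, against 82.4 and 16.4 CPM in untreated libraries. Vha100-1, known in flies from neurons and synaptic vesicles, had 21.0 and 108 CPM in ElavWT, 23.2 and 116 CPM in FneWT and 27.7 and 121 CPM in Rbp9WT libraries, against 14.0 and 166 CPM in untreated libraries. The 2 genes thus stood in opposite order in the replicate numbers, and neither separated transfected from untreated cells. Both overlap a gene on the other strand, Vti1b for Vha100-2 and Alg13 for Vha100-1. The sources do not state whether counting used strand, so reads of the overlapping genes may not be told apart.

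VhaPPA1-1, the c'' subunit of the ring, ran from 148 to 308 CPM in transfected libraries, with 521 and 185 CPM in untreated libraries. VhaAC39-1, the d subunit that joins the shaft to the ring, ran from 153 to 294 CPM in transfected libraries, with 389 and 187 CPM in untreated libraries. Its paralog VhaAC39-2 ran from 1.27 to 5.34 CPM in transfected libraries, with 8.89 and 2.20 CPM in untreated libraries. All 3 genes overlapped between the groups. Of the accessory proteins, VhaAC45 had 214 and 305 CPM in ElavWT, 254 and 399 CPM in FneWT and 263 and 404 CPM in Rbp9WT libraries, against 194 and 335 CPM in untreated libraries. VhaM8.9, which in mammals is also known as the prorenin receptor, ran from 283 to 531 CPM in transfected libraries, with 810.2 and 382 CPM in untreated libraries.

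The 9 members under the filter were barely read. Vha100-3, Vha16-2, Vha16-3 and Vha16-4 had no read in any of the 8 libraries, out of 60315673 reads in all. Over the 8 libraries Vha16-5 had 3 reads, Vha100-5 had 5, Vha36-2 had 8, Vha100-4 had 19 and VhaPPA1-2 had 47. Of these 5 genes only VhaPPA1-2 was read in untreated cells, with 0.587 CPM in replicate 2 and 0 in replicate 1. At this depth a level under the limit of 3 reads cannot be told from 0.

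The share of each subunit's reads that fell on each paralog does not depend on how libraries are scaled. For subunits D, F, c, c'' and d the general gene held at least 95.4% of the subunit's reads in each of the 8 libraries. The 2 exceptions were subunits A and a. Vha68-1 held 19.0% (95% Wilson interval 16.5 to 21.9) and 24.8% (19.9 to 30.5) of A subunit reads in ElavWT libraries. It held 19.1% (16.9 to 21.5) and 29.7% (25.2 to 34.6) in FneWT libraries and 18.7% (16.5 to 21.2) and 26.4% (22.2 to 31.2) in Rbp9WT libraries. In untreated libraries it held 3.16% (2.53 to 3.95) and 8.56% (6.13 to 11.8). Every transfected library was thus above both untreated ones, with intervals that do not meet. These intervals cover counting error only, and with 2 libraries against 2 a 2-sided exact permutation test cannot go below p = 0.333, so none was run.

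Vha100-1 held 46.0% and 87.4% of a subunit reads in ElavWT libraries, 31.4% and 93.1% in FneWT libraries and 32.8% and 84.0% in Rbp9WT libraries, against 14.5% and 91.0% in untreated libraries. The leading a subunit gene thus differed with the replicate number in every group, being Vha100-1 in all replicate 2 libraries and Vha100-2 in all replicate 1 libraries.

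**Figure D2:**
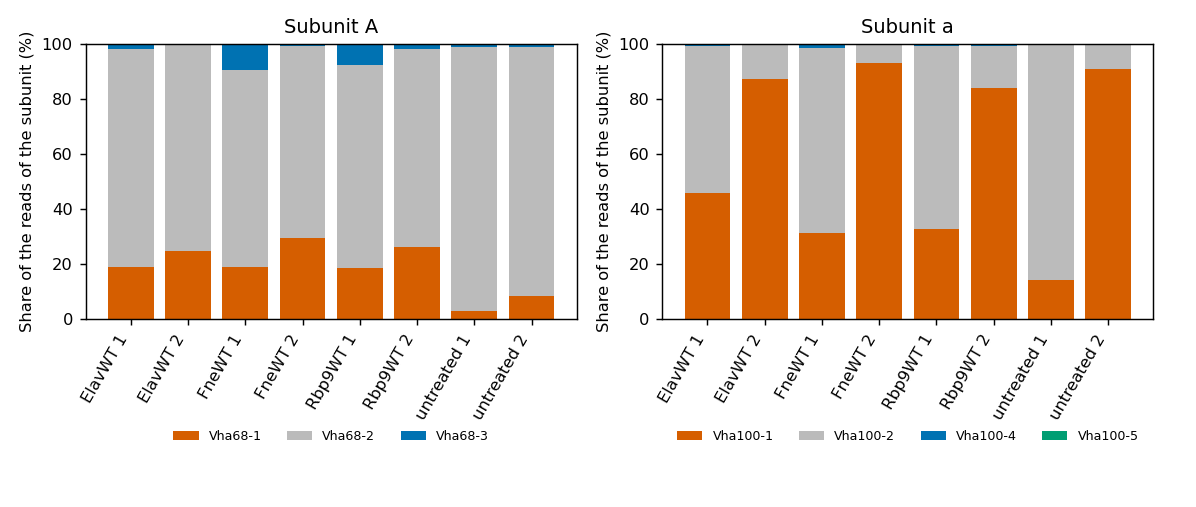
Stacked bars of the share of subunit A reads (left) and subunit a reads (right) that fell on each paralog, 1 bar per library, on an axis from 0 to 100%. The Vha68-1 segment is 18.7 to 29.7% in the 6 transfected libraries and 3.16 and 8.56% in the untreated ones, while the Vha100-1 segment is 84.0 to 93.1% in replicate 2 and 14.5 to 46.0% in replicate 1 libraries.

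Each protein was compared with untreated cells on log2(CPM + 1) with limma, in 1 fit of all 8 libraries over the 9114 genes, with a Benjamini-Hochberg adjusted p under 0.05 as the threshold. With group as the only term no gene passed in any of the 3 comparisons (0% of tested genes), and no member among them. At an unadjusted p under 0.05 this fit held 1, 2 and 1 of the 19 tested members in ElavWT, FneWT and Rbp9WT, beside 444, 677 and 666 genes. On recovered reads edgeR passed no gene, and DESeq2 passed Vha68-1 alone among the members in each comparison, beside 263, 436 and 266 genes (2.89%, 4.78% and 2.92%). Same-numbered libraries deviated together from their group means, with correlations of 0.55 to 0.869 in all 6 pairs of groups, so limma was also run with the replicate number as a further term. Its calls are given below.

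Vha68-1 was the member that passed in all 3 comparisons of that fit. In ElavWT it rose by a log2 change of 1.61 (SE 0.33, adjusted p = 0.00238), in FneWT by 2.01 (SE 0.33, adjusted p = 0.000159) and in Rbp9WT by 1.89 (SE 0.33, adjusted p = 0.000302). Since the median tested gene also had a higher CPM after transfection, by 0.25 in ElavWT, 0.28 in FneWT and 0.42 in Rbp9WT on the log2 scale, further changes are given relative to it. Relative to the median gene Vha68-1 was higher by 1.36, 1.73 and 1.47 on average, and by 1.26 to 1.79 in each of the 6 pairs of same-numbered libraries. The 3 comparisons share the untreated libraries. The call in ElavWT was lost without ElavWT replicate 1, with a relative change of 1.22 in what remained. All Vha68-1 calls were lost when the filter on low values was dropped. No gene of the table passed in that limma fit, and 6, 6 and 4 of the 28 members had an unadjusted p under 0.05, beside 13.6%, 17.2% and 17.8% of all 13777 genes.

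Vha14-1 was the only other member to pass. In ElavWT it fell by 1.29 relative to the median gene (SE 0.29, adjusted p = 0.0228), by 1.74 in replicate 1 and 0.81 in replicate 2. The call was lost without ElavWT replicate 1, without ElavWT replicate 2 and without untreated replicate 1, where its relative changes were -1.13, -1.43 and -0.80. It did not pass in FneWT (relative change -0.58, adjusted p = 0.499) or in Rbp9WT (-0.54, adjusted p = 0.806).

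The members that passed in the fit with the replicate term were therefore 2 of 19 in ElavWT, 1 of 19 in FneWT and 1 of 19 in Rbp9WT. Over all tested genes 10.1%, 17% and 18.5% passed, mostly higher: 9.02% higher and 1.09% lower for ElavWT, 15.1% and 1.94% for FneWT, and 17.7% and 0.735% for Rbp9WT. In this limma fit the members' shares were thus close to the background in ElavWT and under it in FneWT and Rbp9WT. With edgeR and the replicate term, 1 member was higher and 4 lower for ElavWT, 2 and 4 for FneWT, and 1 and 2 for Rbp9WT. In edgeR 16.8% of genes passed for ElavWT (11.1% higher, 5.73% lower), 25.9% for FneWT (15.7% higher, 10.2% lower) and 22.4% for Rbp9WT (13.7% higher, 8.72% lower). In limma with the replicate term more members passed without untreated replicate 2. That fit leaves 1 untreated library, so its counts are not read here. The fits above in which the ElavWT calls of Vha68-1 and Vha14-1 were lost also leave 1 library in a group. Those losses carry the same limit. With median-ratio scaling in place of CPM, the passing members were 1 higher and 1 lower in ElavWT, 2 higher and 1 lower in FneWT, and 1 higher in Rbp9WT. Under that scaling 7.7% of genes were higher and 2.75% lower for ElavWT, 12.3% and 6.45% for FneWT, and 10.4% and 4.75% for Rbp9WT. The 2 members added in FneWT were Vha36-3, which rose by 1.32 (adjusted p = 0.0434), and Vha100-2, with a relative change of -1.13 (adjusted p = 0.0471). In CPM neither passed in FneWT, Vha36-3 with a relative change of 1.17 (SE 0.54, adjusted p = 0.0621) and Vha100-2 with -1.10 (SE 0.37, adjusted p = 0.132). Vha100-2 in ElavWT also did not pass, at -1.16 (SE 0.37, adjusted p = 0.129).

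In Rbp9WT the next members by p did not pass either. Vha13 had a relative change of 0.08 (SE 0.31, adjusted p = 0.284) and Vha68-3 of 0.81 (SE 0.57, adjusted p = 0.139). Counted by whether the 2 libraries of a group lie outside both untreated ones, 2 tested members were higher and 1 lower for ElavWT, 2 and 1 for FneWT, and 3 and 0 for Rbp9WT. The higher ones were Vha68-1 and Vha36-3, with Vha13 in Rbp9WT, and the lower one was Vha36-1. Over all tested genes 23% were higher and 7.33% lower for ElavWT, 25.3% and 8.06% for FneWT, and 33.5% and 5.98% for Rbp9WT.

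**Figure D3:**
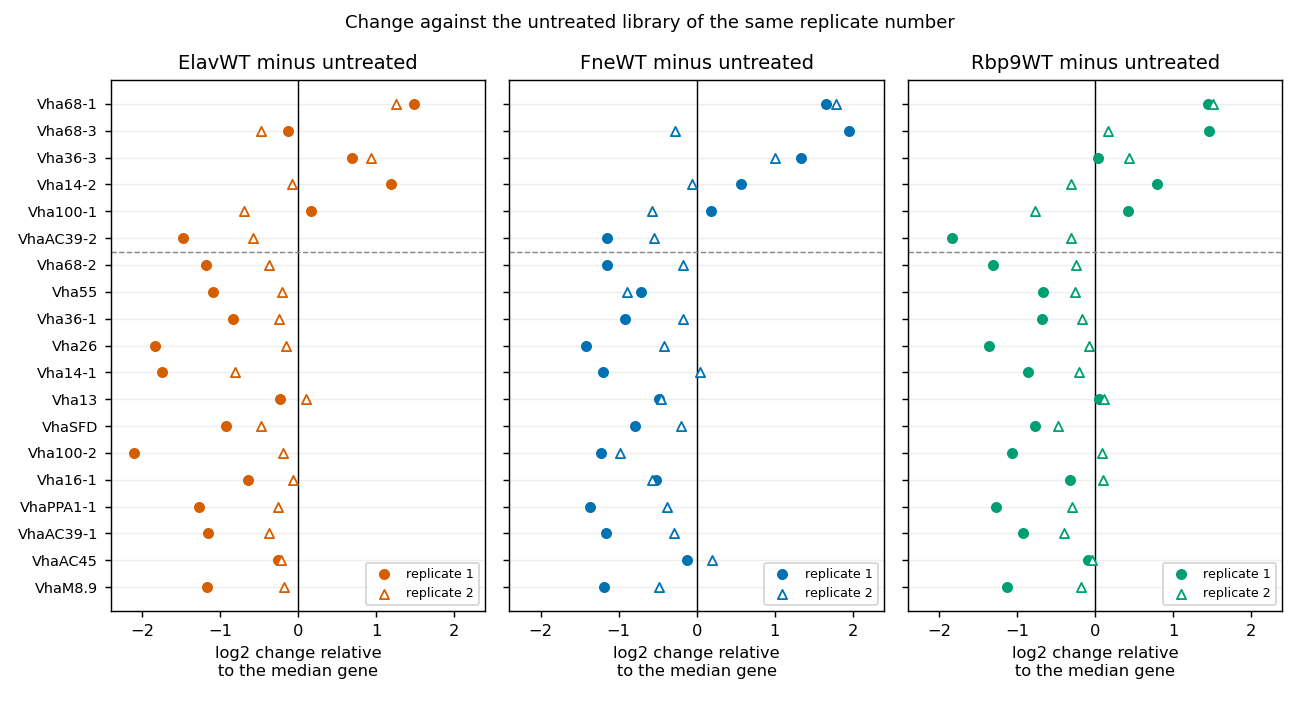
Log2 change in CPM + 1 relative to the median gene for the 19 tested members, each transfected library minus the untreated library of the same replicate number, with further paralogs above the dashed line and the general set below it. Vha68-1 lies between 1.26 and 1.79 in all 6 pairs, while the general genes lie further left in replicate 1 (filled circles, medians -1.16, -1.15 and -0.86) than in replicate 2 (open triangles, medians -0.22, -0.37 and -0.18).

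The general set as a whole lay on the low side of the median gene. In ElavWT 13 of its 13 genes, in FneWT 12 and in Rbp9WT 12 had a negative relative change, with medians of -0.71, -0.66 and -0.54, where the median of all tested genes is 0 by construction. Vha14-1 in ElavWT was the only one of these changes to pass in limma with CPM, and under median-ratio scaling Vha100-2 in FneWT passed as well. The offset depends on the untreated libraries. In the fit with the replicate term the medians were -0.30, -0.36 and -0.10 without untreated replicate 1, where 12, 12 and 9 of the 13 genes were negative, and -1.11, -1.05 and -1.03 without untreated replicate 2. The size of the offset differed with the replicate number. Against the same-numbered untreated library, the median relative change of the 13 genes was -1.16 in replicate 1 and -0.22 in replicate 2 of ElavWT, -1.15 and -0.37 for FneWT, and -0.86 and -0.18 for Rbp9WT. Untreated replicate 1 is thus the library against which the general genes stood lowest. It was also the deepest library and the one with the smallest rRNA-named share, and the part of these properties in the offset was not tested.

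In unshifted CPM the 13 general genes summed to 5618 and 4506 CPM in ElavWT, 6549 and 3534 CPM in FneWT and 7490 and 5696 CPM in Rbp9WT libraries, against 7731 and 4604 CPM in untreated libraries. As ratios to the same-numbered untreated library this is 0.727 and 0.979 for ElavWT, 0.847 and 0.768 for FneWT, and 0.969 and 1.24 for Rbp9WT. ElavWT and FneWT sums lay under their untreated partners in both replicates, and Rbp9WT sums fell on both sides. Under median-ratio scaling the Rbp9WT sums were 5606 and 5723, against 8014 and 6018 in untreated libraries, so all 6 transfected sums lay under their untreated partners there. With rRNA-named genes left out the Rbp9WT sums were 7862.8 and 6729.7, against 7962.5 and 5762.8 in untreated libraries. Rbp9WT replicate 2 thus stayed above its partner there, as in CPM. Vha16-1 was the largest single part of each of these sums. Without it the ratios in CPM were 0.625 and 0.938 for ElavWT, 0.716 and 0.844 for FneWT, and 0.805 and 1.13 for Rbp9WT. By sector, with the further paralogs included, V1 sums stood at 0.651 to 1.19 times and Vo sums at 0.715 to 1.25 times their untreated partners.

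Between the 3 proteins no member passed, with or without the replicate term. In the fit with that term 0.176% of tested genes passed (0.165% higher, 0.011% lower) for FneWT against ElavWT, 0.592% (0.56% higher, 0.0329% lower) for Rbp9WT against ElavWT and 0% for Rbp9WT against FneWT, and 2, 3 and 1 members had an unadjusted p under 0.05. Beside them 706, 1006 and 506 of the 9114 genes were under it. With group as the only term 0 members were under it. In edgeR and DESeq2 no member passed between proteins either.

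In the fit with the replicate term more members passed between the replicate numbers than in the transfection comparisons, and so did more of all tested genes. This comparison, replicate 2 against replicate 1 across the 4 groups, was added after the values were seen. It sets 4 libraries against 4, where each transfection comparison sets 2 against 2, so the counts differ in power. In the fit with the replicate term 14 of 19 tested members passed, 2 higher and 12 lower in replicate 2, where 58.1% of all tested genes passed, 9.78% higher and 48.3% lower. The median gene was lower by 0.59 on the log2 scale. Under median-ratio scaling 4 members were higher and 8 lower, beside 22.2% and 30.4% of genes. All 4 replicate 2 libraries lay outside all 4 replicate 1 libraries for 14 members, 10.5% of the 19 higher and 63.2% lower, against 6.96% higher and 29.4% lower of all tested genes. The lower ones include Vha68-3 and Vha14-2, which reached the filter only through their replicate 1 values.

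The 2 higher members were Vha100-1 and VhaAC45. Vha100-1 had 108 (ElavWT), 116 (FneWT), 121 (Rbp9WT) and 166 CPM (untreated) in replicate 2, against 21.0, 23.2, 27.7 and 14.0 CPM in the same order in replicate 1. Relative to the median gene it was higher by 3.13 (SE 0.23, adjusted p = 8.86e-09). VhaAC45, at 305 to 404 CPM in replicate 2 and 194 to 263 CPM in replicate 1, was higher by 1.23 (SE 0.21, adjusted p = 0.0110). That call was lost without Rbp9WT replicate 1 (adjusted p = 0.0638) and without Rbp9WT replicate 2 (adjusted p = 0.0645). Lower in replicate 2 were, among others, Vha68-3 at -1.33 (SE 0.40, adjusted p = 0.000309), Vha100-2 at -1.08 (SE 0.26, adjusted p = 2.31e-05) and Vha55 at -0.97 (SE 0.22, adjusted p = 3.21e-06), all relative to the median gene. Without the filter on low values Vha68-3 (adjusted p = 0.0882) and Vha100-2 (adjusted p = 0.0646) did not pass. Vha68-3 reached the filter through its replicate 1 values, such as 13.3 CPM in FneWT and 9.24 CPM in Rbp9WT. Its replicate 2 libraries held 1 to 6 reads. The filter thus favoured a lower replicate 2 level for this gene, so its call is not read as a result. In the filtered table the unshifted change of Vha68-1 did not pass (SE 0.24, adjusted p = 0.174). Before the shift Vha68-1 was lower in replicate 2 of each group, by 0.12 to 0.66 on the log2 scale. Relative to the median gene its change was 0.22.

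Markers of cell types were set beside the replicate numbers as well, where 58.1% of all tested genes passed in the fit with the replicate term. The 7 neuron markers summed to 643 to 752 CPM in replicate 2 and 307 to 777 CPM in replicate 1. Syx1A, a synaptic membrane fusion protein, made up most of the replicate 2 sums and was higher there by 1.47 relative to the median gene (adjusted p = 0.00338). Syt1, nSyb, brp, Snap25 and Rim were lower, with relative changes of -0.64 to -2.32. In CPM elav did not pass, and under median-ratio scaling it was higher in replicate 2 by 0.85 (adjusted p = 0.00612). The 7 testis markers summed to 0.147 to 0.426 CPM in replicate 2 and 0.834 to 8.79 CPM in replicate 1, with Mst98Ca at 0 throughout. Each of these replicate 2 sums lies under the 3-read limit of its library. Only dj of them was tested, and it was lower in replicate 2. Of 4 tested hemocyte markers 2 were lower and none higher. No midgut marker (1 tested) and no fat body marker (2 tested) passed. The part of these RNAs and of the rRNA-named share in the member differences was not tested.

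**Figure D4:**
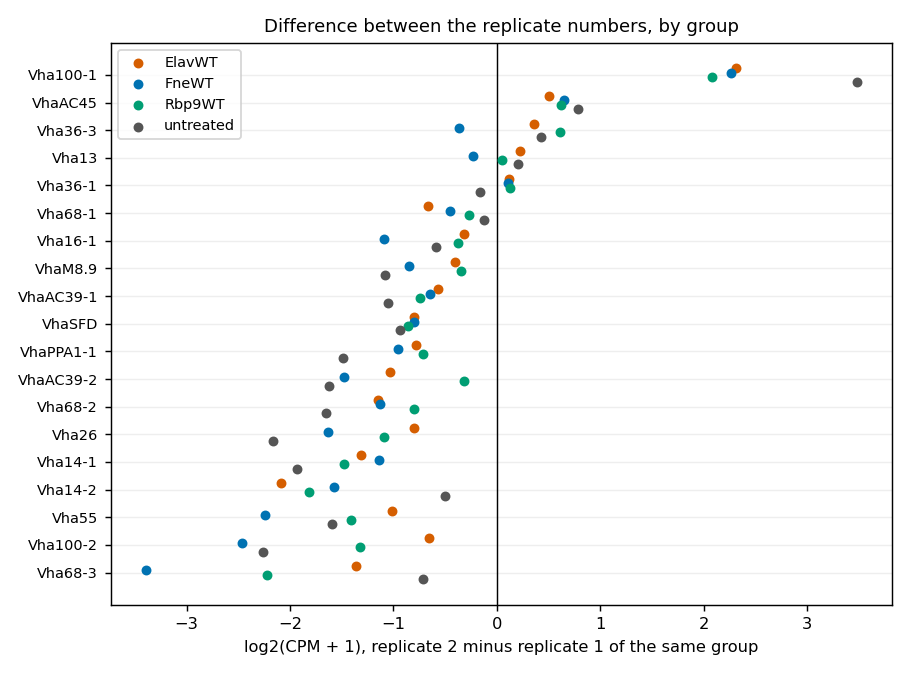
Difference in log2(CPM + 1) between replicate 2 and replicate 1 of each group for the 19 tested members, 1 point per group, ordered by the mean over groups. Vha100-1 is 2.08 to 3.48 higher in replicate 2 in all 4 groups, and VhaAC45 0.51 to 0.78 higher, while most general genes lie left of 0.

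Neuron and hemocyte markers were also set beside the transfection comparisons. Neuron markers summed to 777 and 643 CPM in ElavWT, 676 and 750 CPM in FneWT and 627 and 752 CPM in Rbp9WT libraries, against 307 and 667 CPM in untreated libraries. Of the 7, Snap25 and Rim rose in all 3 comparisons of the fit with the replicate term, by 1.24 to 2.44 relative to the median gene. No other neuron marker passed in that fit. Over all tested genes 9.02%, 15.1% and 17.7% were higher there for ElavWT, FneWT and Rbp9WT, and 1.09%, 1.94% and 0.735% lower. Hemocyte markers summed to 155 and 105 CPM in ElavWT, 264 and 124 CPM in FneWT and 326 and 177 CPM in Rbp9WT libraries, against 265 and 160 CPM in untreated libraries. Of them Pxn was lower in ElavWT (relative change -1.25, adjusted p = 0.0431). Col4a1 was higher in FneWT (1.24, adjusted p = 0.00268) and in Rbp9WT (0.81, adjusted p = 0.0127). Testis markers summed to 8.18 and 0.426 CPM in ElavWT, 6.96 and 0.364 CPM in FneWT and 8.79 and 0.398 CPM in Rbp9WT libraries, against 0.834 and 0.147 CPM in untreated libraries. Midgut markers reached 8.70 CPM in transfected and 1.32 CPM in untreated libraries, and fat body markers 33.8 CPM in transfected and 6.17 CPM in untreated libraries. The only testis and midgut markers tested, 1 of each, did not pass. Both tested fat body markers, Yp3 and Adh, rose in FneWT and Rbp9WT, by 1.03 to 2.61 relative to the median gene. The part of these markers in the paralog values was not tested.

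Outside the rule, 8 genes close to the pump were followed, of which 5 were tested. VhaM9.7-b, the general gene of the small e subunit of Vo, had 289 and 221 CPM in ElavWT, 287 and 206 CPM in FneWT and 367 and 260 CPM in Rbp9WT libraries, against 530 and 253 CPM in untreated libraries, and did not pass. Mitf, the fly relative of mammalian TFEB, a transcription factor of lysosomal and V-ATPase genes, had 43.6 and 29.8 CPM in ElavWT, 55.4 and 42.7 CPM in FneWT and 136 and 80.1 CPM in Rbp9WT libraries, against 35.3 and 31.0 CPM in untreated libraries. Both Rbp9WT libraries exceeded all others for Mitf. It rose in Rbp9WT by 1.21 relative to the median gene (SE 0.29, adjusted p = 3.00e-04) and did not pass in ElavWT or FneWT. None of the 5 passed in those 2 comparisons in CPM. Under median-ratio scaling VhaM9.7-c, a low paralog of the e subunit, was lower in ElavWT (relative change -1.47, adjusted p = 0.0361).

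Of 22 lysosomal enzymes and membrane proteins, 16 were tested. In the fit with the replicate term 1 was lower in ElavWT, 1 lower for FneWT, and 1 higher and 1 lower for Rbp9WT, with median relative changes of -0.36, -0.59 and -0.70. Over all tested genes 1.09%, 1.94% and 0.735% were lower in the same comparisons, and 9.02%, 15.1% and 17.7% higher. CtsL1, a cathepsin that digests proteins in lysosomes, had 529 and 943 CPM in ElavWT, 691 and 1658 CPM in FneWT and 490.2 and 1062 CPM in Rbp9WT libraries, against 1858 and 1817 CPM in untreated libraries. All 6 transfected libraries were below both untreated ones. It fell by 1.63 in ElavWT (adjusted p = 0.0143) and by 1.76 in Rbp9WT (adjusted p = 0.0102). Hexo2, a hexosaminidase, fell by 1.20 in FneWT (adjusted p = 0.0263), and Npc1a, a sterol transporter, rose by 0.62 in Rbp9WT (adjusted p = 0.0188). Under median-ratio scaling 3, 5 and 4 of the 16 were lower and none higher. Over all tested genes 2.75%, 6.45% and 4.75% were lower under that scaling, and 7.7%, 12.3% and 10.4% higher.

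The Rag GTPases, the Ragulator and TORC1 sense amino acids on the lysosome beside the V-ATPase. Of 20 such genes tested, 0 passed in ElavWT, 1 rose in FneWT and 2 rose in Rbp9WT, and none fell. These counts are under the shares of all tested genes that were higher in that fit, 9.02% for ElavWT, 15.1% for FneWT and 17.7% for Rbp9WT. They were gig, a subunit of the TSC complex that restrains TORC1, by 0.67 in FneWT (adjusted p = 0.0428) and 0.70 in Rbp9WT (adjusted p = 0.0172), and Nprl3, a GATOR1 subunit, by 1.18 in Rbp9WT (adjusted p = 0.0172). The median relative change of the 20 genes was -0.37 in ElavWT, -0.13 in FneWT and -0.23 in Rbp9WT. Under median-ratio scaling 0 passed in ElavWT and FneWT, and in Rbp9WT Nprl3 was higher and Lamtor4 and Thor were lower.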

How the data were processed

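The deposited table holds CPM per gene, computed by the authors for 13777 genes in the 8 libraries used. Per the submitters' processing notes, reads were placed on dm6. Aligner, counter and use of strand are not given in the sources. Groups and replicate numbers come from sample titles. Whole reads were recovered from the spacing of the CPM values, and 100% of values were whole within 0.01 of a read. Identifiers were matched to names for 13684 genes, and 93 had no match.

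The 9114 genes whose mean reached 1 CPM were tested on log2(CPM + 1), so changes of low genes are understated, with limma 3.58.1 (trend, robust) under R 4.3.3, with group alone (4 residual degrees of freedom) and with the replicate number added (3). The pairing by number rests on the correlations of 0.55 to 0.869, as no label states what a number shares. Relative changes subtract the median of all tested genes, while p-values and SE belong to the unshifted change. The recovered reads were also fitted with edgeR 4.0.16 and DESeq2 1.42.0. Intervals are 95% Wilson intervals. Tables and figures came from Python 3.11.15 with matplotlib 3.10.9, pandas 2.3.3, scipy 1.17.1 and numpy 2.4.6. Both limma fits were also run on simulated data. Those data were built with the replicate term, so they cannot decide between the fits, and no result here rests on them.

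Members, their classes (general or further paralog, from textbook knowledge) and the lists were chosen with earlier results of these data known. Changes with SE and p were given for members that passed in either limma fit, topped up to 3 per comparison by unadjusted p. Up to 4 passing genes were named per list.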

Additional observations from a re-analysis of the deposited data

Results flagged for a closer look

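For Vha68-3 ElavWT and Rbp9WT differed in sign against the same-numbered untreated libraries only after the change of the median gene was subtracted. Relative to the median gene it was higher in both Rbp9WT libraries, by 1.46 and 0.16, and lower in both ElavWT libraries, at -0.13 and -0.47, a difference of 1.11 on average. In unshifted CPM ElavWT replicate 1 was above untreated replicate 1, with 2.11 against 1.60 CPM. ElavWT replicate 2 holds 1 read of this gene, Rbp9WT replicate 2 holds 6 and untreated replicate 2 holds 4. For Vha13, relative to the median gene, both Rbp9WT libraries were higher, by 0.05 and 0.11, and both FneWT libraries lower, at -0.49 and -0.46, a difference of 0.55. In unshifted CPM FneWT replicate 1 was not lower, with 407 CPM against 400.1 CPM in untreated replicate 1. The limma test between the proteins with the replicate term passed neither, with adjusted p = 0.386 for Vha68-3 in Rbp9WT against ElavWT and 0.864 for Vha13 in Rbp9WT against FneWT.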

How the results depend on the processing

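The members passing against untreated cells numbered 0 in ElavWT, FneWT and Rbp9WT with group alone in limma. With the replicate block they numbered 2, 1 and 1; with the block and median-ratio scaling 2, 3 and 1; with the block and no rRNA-named genes 2, 2 and 1; with the block and a pseudocount of 0.5 2, 2 and 1; with the block and a mean of at least 5 CPM 2, 1 and 1; in edgeR with the block 5, 6 and 3, of which 4, 4 and 2 were lower; and in DESeq2 1, 1 and 1. Without a filter on low values and with the block they numbered 0. Leaving out 1 library gave 0 to 11 in ElavWT, 0 to 12 in FneWT, 0 to 10 in Rbp9WT and 0 to 1 in Rbp9WT against ElavWT. The highest counts came without untreated replicate 2: 6, 7 and 4 with the block, and 11, 12 and 10 with median-ratio scaling added. Members passing in replicate 2 against replicate 1 numbered 14, beside 58.1% of all tested genes. Without a filter they numbered 9, a setting for which the share of all genes is not given. That count also changed with 1 library left out. The cause of these differences was not tested. FneWT against ElavWT and Rbp9WT against FneWT gave 0 members under every alternative run.

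Vha68-1 kept its direction under every alternative, at 1.22 to 1.55 in ElavWT, 1.57 to 1.90 in FneWT and 1.34 to 1.68 in Rbp9WT relative to the median gene. Its share of A subunit reads exceeded that of untreated cells by 16.1, 18.5 and 16.7 percentage points, and by 13.2 to 18.9, 13.2 to 23.9 and 12.9 to 20.6 with 1 library left out. The Vha100-1 share of a subunit reads was higher in replicate 2 than in replicate 1 by 57.7 points, 52.2 to 62.7 with 1 library left out. Vha13 in Rbp9WT, at -0.22 to 0.34 with 1 library left out, turned to -0.19 without Rbp9WT replicate 2, -0.22 without untreated replicate 1, -0.0094 without untreated replicate 2 with the block, and, with median-ratio scaling and the block, -0.014 without Rbp9WT replicate 1 and -0.059 without untreated replicate 2. Vha68-3 in Rbp9WT turned to -0.063 without Rbp9WT replicate 1.

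With 2 libraries per group a lone library left in a group is assumed to vary like the others. Depth limits Vha36-3, Vha14-2 and Vha68-3, which rest on 68, 67 and 239 reads over the 8 libraries.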

Other observations

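Autophagy delivers material to the lysosome that the V-ATPase acidifies. Of 20 autophagy genes tested with limma and the replicate term, 2 rose in ElavWT, 4 in FneWT and 3 in Rbp9WT, and none fell, with median relative changes of 0.03, -0.05 and -0.19. Over all tested genes 9.02%, 15.1% and 17.7% were higher in the same comparisons, so these counts are near the background. Atg18b, a phosphoinositide-binding protein, had 41.9 and 23.0 CPM in ElavWT, 47.8 and 29.7 CPM in FneWT and 38.9 and 36.9 CPM in Rbp9WT libraries, against 12.2 and 14.7 CPM in untreated libraries. It rose by 0.91, 1.15 and 1.02 relative to the median gene (adjusted p = 0.0209, 0.00291 and 0.00269). Atg10, a conjugating enzyme, rose by 2.05 in FneWT (adjusted p = 7.87e-05) and 1.38 in Rbp9WT (adjusted p = 0.00122), with 54.3 and 23.3 CPM in FneWT and 28.8 and 20.5 CPM in Rbp9WT libraries, against 5.35 and 7.34 CPM in untreated libraries. Atg3 rose in ElavWT and FneWT by 0.78 and 0.73, and Atg17 rose in FneWT and Rbp9WT by 0.74 and 0.51. Under median-ratio scaling 1 rose and 1 fell in ElavWT, and 2 rose and 1 fell in each of FneWT and Rbp9WT, the one that fell being Atg13.

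HOPS and CORVET tether endosomes and lysosomes before they fuse. Of 9 genes tested, 1 rose in ElavWT, 1 rose and 1 fell in FneWT, and 2 rose in Rbp9WT. Over all tested genes 9.02%, 15.1% and 17.7% were higher in the same comparisons, and 1.09%, 1.94% and 0.735% lower. Among 9 genes a single gene is a large share, so no difference from the background is read from these counts. Under median-ratio scaling 0 passed in ElavWT, 1 was higher and 1 lower in FneWT, and Vps8 alone was higher in Rbp9WT. Vps8, a CORVET subunit, had 22.0 and 9.16 CPM in ElavWT, 32.2 and 10.7 CPM in FneWT and 25.8 and 12.9 CPM in Rbp9WT libraries, against 13.0 and 2.35 CPM in untreated libraries. It rose by 0.91, 1.25 and 1.08 relative to the median gene (adjusted p = 0.0385, 0.00408 and 0.00436). The other gene that rose was lt, by 0.39 in Rbp9WT (adjusted p = 0.0495), and Vps16B fell by 1.54 in FneWT (adjusted p = 0.0161). Leaving out single libraries was not run for the genes of these lists.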
